A study of Mus musculus with 24 samples.

Results

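The genes examined here encode 10 C-type lectin receptors of myeloid cells, namely Clec4n, Clec4e, Clec4d, Clec4a1, Clec4a2, Clec5a, Clec7a, Clec10a, Clec12a and Mrc1. They were taken by symbol from both count tables of the series, and all 10 were found among the 54658 rows. The tables came from male C57BL/6 mice of 7 to 12 weeks that received β-nicotinamide mononucleotide (β-NMN, a precursor of NAD+) intraperitoneally at 185 mg/kg/day or saline vehicle. In the first experiment, mice were injected with thioglycollate (TGC), an irritant that draws monocytes and macrophages into the peritoneal cavity, and were given β-NMN (n = 6) or vehicle (n = 6) from the time of TGC injection. Peritoneal cells were harvested on day 3, plated and exposed to Escherichia coli for 6 h before RNA extraction, so every peritoneal library, vehicle included, came from TGC-elicited and bacteria-stimulated cells. In the second experiment, heart and lung were taken from the same 6 mice 24 h after cecal ligation and puncture (CLP), a surgical model of peritonitis and sepsis, with 3 mice on vehicle and 3 on β-NMN. The study describes these organs as taken after a single administration of β-NMN, whereas the TGC mice were injected daily. No sham or unstimulated libraries entered the comparisons. The sources of the CLP libraries are labelled as thioglycollate peritonitis, whereas their titles and tissues name CLP.

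C-type lectin receptors bind sugars, lipids and debris of microbes and dying cells. Dectin-2 (Clec4n), Mincle (Clec4e) and MCL (Clec4d) sit at the membrane with the Fc receptor gamma chain (Fcer1g), which recruits the kinase Syk and, through the adaptor Card9, leads to NF-κB activation and cytokine production. Dectin-1 (Clec7a) reaches Syk through its own tail, and Clec5a does so through the adaptor DAP12 (Tyrobp). Other members carry inhibitory motifs, such as Clec4a2 and Clec12a, or act mainly in uptake, such as the mannose receptor Mrc1 (CD206) and the galactose-type lectin Clec10a. Mrc1 and Clec10a are widely used as marks of alternatively activated macrophages.

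In GRCm38, 5 of the 10 genes lay in the Clec4 cluster of chromosome 6, which spans 368023 bases from Clec4a1 to Clec4e and holds 9 genes in GENCODE M21. Clec4n (chr6:123229843-123247021), Clec4d (chr6:123262111-123275265) and Clec4e (chr6:123281789-123289870) stood next to each other at its end, with Clec4e on the minus strand and the other two on the plus strand. Clec4a1 (chr6:122921848-122934619) opened the cluster and Clec4a2 (chr6:123106428-123143999) lay in its middle. Clec12a (chr6:129342691-129365303) and Clec7a (chr6:129461591-129472779, listed as a polymorphic pseudogene in this annotation) were separated by 96287 bases. Clec5a lay at chr6:40574894-40585821, Clec10a at chr11:70156197-70170834 and Mrc1 at chr2:14229392-14332057. The share of 150-base transcript windows found unchanged in another gene was 0.468% for Clec4a2 (shared with Clec4a4) and 0.931% for Clec10a (shared with Mgl2), and no such window was found for the other 8 members.

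Promoter windows from RefSeq (GRCm38.p6, 250 bases before to 50 after the gene start) were found for 8 of the 10 members and not for Clec4n and Clec10a. The windows of Clec4d (chr6:123261857-123262156, plus strand) and Clec4e (chr6:123289822-123290121, minus strand) are shown because these neighbours had the highest levels of all members in peritoneal cells and were both lower with β-NMN, and that of Mrc1 (chr2:14229164-14229463, plus strand) because it went the other way. Capitals mark matches, on either strand and overlapping ones merged, to TTNNGNAA, the core of sites for CCAAT/enhancer-binding proteins, and to GAGGAA, a core of sites for the myeloid factor PU.1.
Clec4d: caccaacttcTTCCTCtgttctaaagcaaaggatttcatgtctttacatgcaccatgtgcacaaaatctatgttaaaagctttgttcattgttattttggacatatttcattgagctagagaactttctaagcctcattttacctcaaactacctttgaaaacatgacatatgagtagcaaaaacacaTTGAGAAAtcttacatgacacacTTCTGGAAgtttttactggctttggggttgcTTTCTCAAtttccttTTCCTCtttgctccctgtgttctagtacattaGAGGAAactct
Clec4e: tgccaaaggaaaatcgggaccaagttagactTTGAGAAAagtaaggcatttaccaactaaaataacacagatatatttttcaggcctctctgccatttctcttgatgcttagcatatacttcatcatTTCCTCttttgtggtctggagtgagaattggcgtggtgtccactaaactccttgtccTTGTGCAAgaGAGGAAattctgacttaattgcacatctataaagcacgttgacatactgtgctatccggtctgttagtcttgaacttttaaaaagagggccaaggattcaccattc
Mrc1: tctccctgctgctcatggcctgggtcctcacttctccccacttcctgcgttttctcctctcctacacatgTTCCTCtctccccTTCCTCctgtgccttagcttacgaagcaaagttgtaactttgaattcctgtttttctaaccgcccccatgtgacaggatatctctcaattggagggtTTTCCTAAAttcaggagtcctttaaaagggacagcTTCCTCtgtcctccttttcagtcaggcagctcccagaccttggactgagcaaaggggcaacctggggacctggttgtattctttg
A match to TTNNGNAA was present in 40.7% and a match to GAGGAA in 28.3% of the 32851 promoter windows of the table. Both occurred in each of the 3 windows shown. Clec4e held TTGTGCAA followed by GAGGAA within the last 70 bases before its start (positions -66 and -56), and Clec4d held TTCTGGAA at -39. The AP-1 letters TGANTCA (7.8% of windows) and the spaced motifs of κB (50.8%) and STAT6 (7.0%) were also searched on both strands and were not found in the windows of Clec4d or Clec4e, whereas the Mrc1 window held 1 κB match at -11. These matches are descriptions of letters and were not tested for binding.

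Total counts ranged from 31126823 to 112456050 reads per peritoneal library, from 27319513 to 68523239 reads per heart and from 8915366 to 28356786 reads per lung. Peritoneal libraries fell into 2 depth classes that cut across treatment, with 3 vehicle and 2 β-NMN libraries above 80 M reads. Vehicle replicate 2 of the CLP experiment stood apart from its group in both organs, and its lung library was the shallowest, so the changes of the members and the medians of the lists in the organs are also given without it. Levels are CPM, the reads of a gene per M reads of its library after scaling by edgeR's TMM factors within each tissue, and a gene is called where the adjusted p of edgeR's quasi-likelihood test is below 0.05. Summed markers went with the labelled organs, with cardiomyocyte markers at 34506 to 53878 CPM in hearts against 71.6 to 414 in lungs, and lung epithelial markers at 58969 to 104439 CPM in lungs against 62.6 to 74.6 in hearts.

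The receptors that signal through Fcer1g were lower in peritoneal cells of β-NMN-treated mice. Clec4n, the Dectin-2 gene, differed most of the members, at 26.3-fold lower, and its neighbours Clec4d and Clec4e were 2.44-fold and 1.99-fold lower. By contrast, Mrc1 and Clec10a were 2.06-fold and 1.86-fold higher. Of the 10 members, 6 were called lower, 3 higher, and Clec4a2 was not called, in a comparison where 51.6% of the 14985 genes tested were called, 27.9% lower and 23.7% higher. The median log2 change of the members was -0.47, against -0.02 over all genes tested. As in any bulk sample, fewer cells of a type and less RNA per cell cannot be told apart here.

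Clec4n, whose product recognises fungal mannans, stood at 69.7, 67.0, 41.6, 87.6, 42.9 and 48.2 CPM in the 6 vehicle libraries (59.5 ± 18.3, SD, n = 6). In the β-NMN libraries it stood at 1.80, 2.04, 2.52, 2.15, 3.39 and 1.81 CPM (2.29 ± 0.603, SD, n = 6). The lowest vehicle library was thus far above the highest β-NMN library, and the β-NMN values still rested on 78 to 186 counted reads per library. The log2 change was -4.72 ± 0.23 (SE, edgeR adjusted p = 4.19e-09). By p, Clec4n ranked 7 of the 14985 genes tested, and 27 among the largest falls. Its log2 difference was -4.57 within the shallower and -4.86 within the deeper depth class. Of 9 neutrophil markers tested 6 were called lower and 1 higher, where 27.9% and 23.7% of all genes tested were. S100a8 fell by 5.00 and Cxcr2 by 4.10 on the log2 scale. Csf3r fell by 0.58, Mmp8 had a change of 0.12 and Retnlg rose by 1.38. The part of these markers in the level of Clec4n was not tested.

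Clec4e, the Mincle gene and a sensor of mycobacterial cord factor and of dead cells, was the most abundant member. It ranged from 3048 to 4847 CPM with vehicle (median 4316) and from 1726 to 2730 CPM with β-NMN (median 1919). The groups did not overlap, and the log2 change was -0.99 ± 0.14 (SE, edgeR adjusted p = 4.71e-05). Clec4d, whose product pairs with Mincle, ranged from 370 to 617 CPM with vehicle (median 539.5) and from 176 to 257 CPM with β-NMN (median 198). These groups were separate as well, with a log2 change of -1.29 ± 0.14 (SE, edgeR adjusted p = 3.24e-06). Clec4a1, a relative of Clec4a2 at the other end of the cluster, ranged from 83.3 to 128 CPM with vehicle (median 100.04) and from 35.8 to 66.7 CPM with β-NMN (median 44.5). It was lower in every β-NMN library than in any vehicle library, by -1.14 ± 0.15 on the log2 scale (SE, edgeR adjusted p = 2.35e-05).

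**Figure D1:**
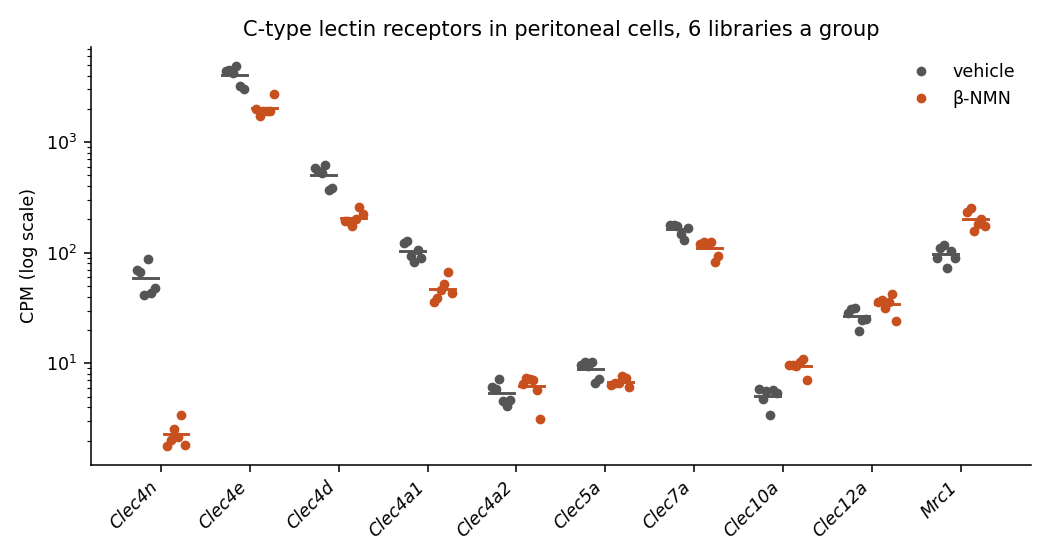
CPM of the 10 receptors in peritoneal cells on a log axis, with 1 point per library (6 vehicle in grey, 6 β-NMN in orange) and a line at each group mean. Clec4n separates the groups most (41.6 to 87.6 against 1.80 to 3.39 CPM), Clec4e is the highest at 1726 to 4847 CPM, and Mrc1 and Clec10a are higher with β-NMN.

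Clec4a2, which carries an inhibitory motif and lies inside the same cluster, did not follow. It ranged from 4.14 to 7.26 CPM with vehicle and from 3.12 to 7.43 CPM with β-NMN, so the groups overlapped, and its log2 change of 0.19 ± 0.20 (SE, edgeR adjusted p = 0.433) was not called. Of the 4 cluster genes that are not among the 10, Clec4a3 fell by 0.68 ± 0.12 on the log2 scale (SE, edgeR adjusted p = 0.000306), from 28.2 ± 3.66 to 17.7 ± 3.16 CPM (SD, n = 6). Clec4a4 was close to the detection limit, at 0.458 ± 0.102 against 0.224 ± 0.150 CPM (SD, n = 6), and was called at -1.01 ± 0.38 (SE, edgeR adjusted p = 0.0361). Clec4b1 and Clec4b2 did not pass the filter on low counts. Along the cluster, the size of the change therefore varied between neighbours, from -4.72 at Clec4n to -1.29 at Clec4d, which starts 15089 bases beyond the end of Clec4n.

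**Figure D2:**
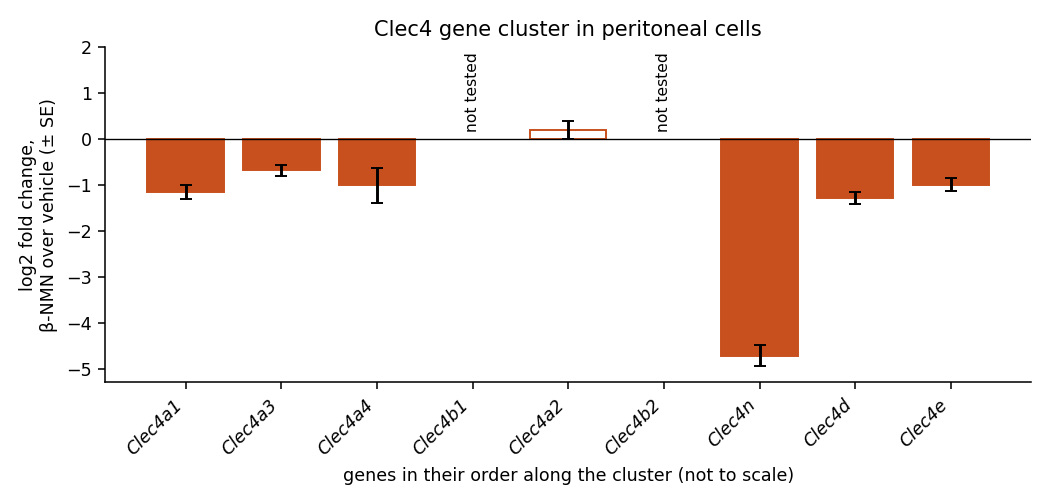
Log2 fold change (β-NMN over vehicle, bars, ± SE) in peritoneal cells for the 9 genes of the Clec4 cluster in their order along chromosome 6, with filled bars for called genes. Clec4n falls by 4.72 on the log2 scale, 5 other genes fall by 0.68 to 1.29, Clec4a2 is not called, and Clec4b1 and Clec4b2 were not tested.

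The other activating receptors changed less. Clec7a, the β-glucan receptor Dectin-1, ranged from 132 to 178 CPM with vehicle (median 172) and from 82.3 to 126 CPM with β-NMN (median 120). Its groups did not overlap, and the log2 change was -0.55 ± 0.12 (SE, edgeR adjusted p = 0.00124). Clec5a, which signals through Tyrobp and binds flaviviruses, ranged from 6.62 to 10.3 CPM with vehicle and from 6.07 to 7.69 CPM with β-NMN. The groups overlapped, and the log2 change was -0.38 ± 0.13 (SE, edgeR adjusted p = 0.0187). This call was lost when vehicle replicate 1, 3 or 4 or β-NMN replicate 1 or 3 was left out, at log2 changes of -0.31 to -0.34, and without the filter on low counts (edgeR adjusted p = 0.113).

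Clec12a, an inhibitory receptor for uric acid crystals, went the other way from its chromosomal neighbour Clec7a. It ranged from 19.8 to 31.8 CPM with vehicle (median 26.96) and from 24.2 to 41.9 CPM with β-NMN (median 35.9), with overlap, for a log2 change of 0.36 ± 0.14 (SE, edgeR adjusted p = 0.0364). The call did not hold without vehicle replicate 4, 5 or 6 or β-NMN replicate 1, 2 or 5, at log2 changes of 0.32 to 0.38. Within depth classes the log2 difference was 0.11 in the shallower and 0.67 in the deeper libraries.

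Mrc1, the mannose receptor, stood at 88.8, 110, 116, 72.8, 105 and 90.2 CPM in the vehicle libraries. With β-NMN it stood at 234, 254, 157, 183, 201 and 175 CPM. Every β-NMN library was above every vehicle library, and the log2 change was 1.05 ± 0.14 (SE, edgeR adjusted p = 1.90e-05). Clec10a, which binds terminal galactose and N-acetylgalactosamine, stood at 5.80, 4.74, 5.56, 3.40, 5.77 and 5.41 CPM with vehicle and at 9.63, 9.74, 9.46, 10.3, 10.9 and 7.00 CPM with β-NMN. Here too the groups were apart, for a log2 change of 0.90 ± 0.14 (SE, edgeR adjusted p = 0.000120). The log2 differences within the shallower and the deeper class were 0.77 and 1.46 for Mrc1 and 0.79 and 1.03 for Clec10a.

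In peritoneal cells, 5 members had every β-NMN library below every vehicle library and 2 had every one above, where 14% and 12.6% of all genes tested did so. For these 7 members the exact two-sided permutation test of mean log2 CPM gave p = 0.00216, the smallest value that 6 against 6 allows. It gave p = 0.0260 for Clec5a, p = 0.0498 for Clec12a and p = 0.515 for Clec4a2 (exact permutation test). These p-values are not adjusted.

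Expressed per kilobase of exon, so that genes can be set side by side, Clec4e led the vehicle libraries at 814 ± 149 CPM per kb (SD, n = 6), followed by Clec4d at 316 ± 64.4. Clec4a1, Clec7a and Clec4n followed at 66.8 ± 11.7, 61.8 ± 7.40 and 41.9 ± 12.9 CPM per kb, and each overlapped with the next. Mrc1 at 15.3 ± 2.54 and Clec12a at 4.85 ± 0.817 CPM per kb were each apart from their neighbours in this order, whereas Clec5a, Clec4a2 and Clec10a, at 2.32, 1.86 and 1.76 CPM per kb, overlapped. With β-NMN, Clec4n moved from the fifth to the last place at 1.61 ± 0.424 CPM per kb, overlapping with Clec5a at 1.77 ± 0.163. Summed over the 10 members, the level was 1326 ± 227 CPM per kb with vehicle and 658 ± 69.3 with β-NMN (SD, n = 6), with ranges of 1035 to 1553 and 597 to 790. Clec4e made up 61.2% ± 1.26 of this sum with vehicle and 61.9% ± 4.39 with β-NMN, while the share of Mrc1 was 1.19% ± 0.303 and 4.85% ± 1.16 and that of Clec4n 3.13% ± 0.604 and 0.247% ± 0.0697 (SD, n = 6).

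**Figure D3:**
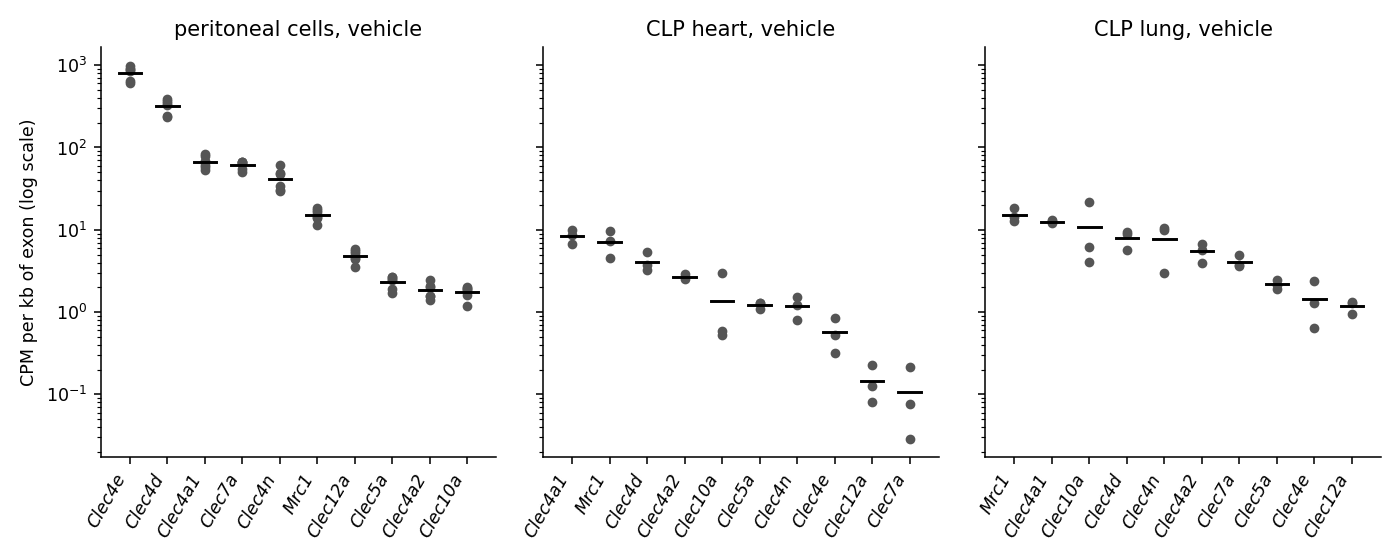
CPM per kb of merged exon on a log axis in the vehicle libraries of peritoneal cells (n = 6), CLP heart (n = 3) and CLP lung (n = 3), with 1 point per library, a line at the mean and genes ordered by mean within each tissue. Clec4e and Clec4d lead in peritoneal cells at 814 and 316, Clec4a1 and Mrc1 lead in the organs, and Clec7a is last in heart at 0.107.

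Genes of the signalling route below these receptors changed unevenly in peritoneal cells. Of 59 listed genes, 58 were tested, of which 35 were called lower and 7 higher, with a median log2 change of -0.55 against -0.02 over all genes. By role, 15 of the 17 tested cytokine and enzyme targets were called lower and 1 higher, and 9 of 13 transcription factors were lower and 1 higher. Of 9 kinases 2 were lower and 2 higher, of 9 genes of the Card9 complex 4 were lower and 1 higher, and of 7 inhibitors 5 were lower. Of the 3 adaptors, 2 were called higher and none lower. Against the 51.6% of all genes called, the share called was 44.4% for the kinases, 55.6% for the Card9 complex and 94.1% for the targets, so the first pair lay near the background.

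Among the called signalling genes with the smallest p, Il23a, a subunit of interleukin 23, fell by 4.71 ± 0.33 on the log2 scale (SE, edgeR adjusted p = 6.63e-08). Il1b fell by 3.17 ± 0.26, Csf2 (GM-CSF) by 2.76 ± 0.24, Ptgs2 (cyclooxygenase 2) by 1.92 ± 0.17 and the phosphatase gene Dusp1 by 1.87 ± 0.13. The shared relay itself did not show a change of that kind. Fcer1g stood at 435 ± 57.2 CPM with vehicle and 444 ± 20.2 with β-NMN, Syk at 760 ± 57.4 and 717 ± 54.6, and Card9 at 6.49 ± 1.01 and 8.01 ± 1.06 (SD, n = 6), with edgeR adjusted p of 0.800, 0.430 and 0.0562. Tyrobp, the adaptor of Clec5a, rose from 244 ± 32.6 to 415 ± 47.8 CPM (log2 change 0.76 ± 0.11, edgeR adjusted p = 3.70e-05). These 4 genes were singled out after their values were seen.

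Other C-type lectins were examined in the same way. Of 53 listed, 29 were tested in peritoneal cells, with 15 called lower and 6 higher. The median log2 change was -0.49, against -0.02 over all genes tested. These calls, and those of the markers below, are to be read against the 51.6% of all genes called, 27.9% lower and 23.7% higher. The smallest p belonged to lectin-like receptors of natural killer cells and lymphocytes and to a selectin. Klrb1b fell by 3.12 ± 0.29, Klrd1 by 2.03 ± 0.22, Fcer2a (CD23) by 2.33 ± 0.27, Klrg1 by 2.38 ± 0.35 and Sele (E-selectin) by 0.84 ± 0.15 on the log2 scale (SE). Markers of natural killer cells fell as well, with 4 of 4 called lower and a summed level of 44.1 to 230.3 CPM with vehicle and 14.6 to 34.1 with β-NMN, and T cell markers did so in 4 of 4 (3.03 to 9.64 against 0.884 to 2.57 CPM). Their part in the result was not tested.

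Genes often used beside Mrc1 and Clec10a as marks of alternative activation did not move together. Of 15 tested, 5 were called higher and 6 lower, where 23.7% and 27.9% of all genes tested were. The share called was 73.3%, against 51.6% of all genes, and the median log2 change was -0.10, against -0.02. Pparg, a lipid-sensing nuclear receptor, rose by 1.59 ± 0.12 on the log2 scale (SE, edgeR adjusted p = 1.23e-07), and Cd163, a haemoglobin scavenger receptor, by 1.95 ± 0.24. Fn1 (fibronectin) fell by 1.45 ± 0.16 and Irf4 by 1.58 ± 0.21 on the same scale. Mgl2, the close relative of Clec10a, was also called higher, at 1.10 ± 0.515 against 0.247 ± 0.105 CPM (SD, n = 6), and was singled out after its values were seen.

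Markers of several cell types were examined in the same peritoneal libraries, and their calls are to be read against the 51.6% of all genes called. The share called was near or below it for macrophages, LYVE1 macrophages and monocytes. The 10 macrophage markers summed to 5918 to 9245 CPM with vehicle and 11167 to 12840 with β-NMN, with 3 called higher and none lower, and without Lyz2 to 2455 to 3587 and 4010 to 4645 CPM. Markers of resident large peritoneal macrophages moved both ways, with 4 of the 7 tested called higher and 2 lower and sums of 32.8 to 52.0 and 49.8 to 96.2 CPM. Timd4 rose by 1.73 and Fcna by 0.98 on the log2 scale, while Gata6, the transcription factor of these cells, fell by 1.43 and Icam2 fell by 0.58. Of the 5 LYVE1 macrophage markers 2 were called higher, Lyve1 at 1.09 and Cd163 at 1.95, and none lower, with overlapping sums of 62.0 to 107 and 73.9 to 105 CPM. Monocyte markers summed to 1199 to 1537 and 818 to 1171 CPM (3 of 6 lower, and 273 to 509 and 320.2 to 528 CPM without F10). Ly6c2 fell by 1.68 and Ccr2 by 1.83 on the log2 scale, while Vcan and Chil3 had changes of 0.26 and 0.04. Vcan, at means of 243 and 291 CPM, made up much of the sum without F10. Dendritic cell markers summed to 448 to 537 and 141 to 254 CPM, with 5 of 8 lower and 1 higher, and without H2-Ab1 to 171 to 209.5 and 39.5 to 53.1 CPM. Ccr7, at means of 148 CPM with vehicle and 27.8 CPM with β-NMN, made up much of the sum without H2-Ab1. Neutrophil markers summed to 495 to 1007 and 335 to 469 CPM, with 6 of the 9 tested lower and 1 higher. Csf3r, which macrophages also express, made up 83.2% of that sum, and the other 11 markers summed to 111 to 318 and 21.3 to 52.6 CPM. Among them S100a9 fell by 5.31 ± 0.58, S100a8 by 5.00 ± 0.34, Cxcr2 by 4.10 ± 0.40 and Ltf by 3.49 ± 0.32 on the log2 scale (SE), whereas Retnlg rose by 1.38 ± 0.40 and Mmp8 had a change of 0.12 ± 0.29. Fibroblast markers summed to 111 to 1173 and 22.9 to 99.8 CPM (5 of 5 lower). No marker of these lists was at 0 in all libraries. The part of these shifts in the changes of the receptors was not tested.

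In the CLP hearts no gene passed the adjusted threshold with edgeR (0% of 16245 genes tested, 1837 at an unadjusted p under 0.05), and so no member was called. With 3 libraries against 3, the exact permutation test cannot go below 0.1. Clec7a did not pass the filter on low counts, with 3 to 30 reads per heart. DESeq2 called 262 genes, among them 1 member, Mrc1.

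Mrc1 stood at 45.9, 61.2 and 29.1 CPM in the vehicle hearts and at 17.8, 16.1 and 17.1 CPM in the β-NMN hearts. The β-NMN hearts lay close together and below all vehicle hearts, the opposite order from peritoneal cells. The log2 change was -1.42 ± 0.26 (SE, edgeR unadjusted p = 0.000981, adjusted p = 0.435), and DESeq2 gave an adjusted p of 0.000470. Without vehicle replicate 2 it was -1.15. Markers of macrophages did not move as one in the hearts. The 10 macrophage markers summed to 377 to 585 CPM with vehicle and 408 to 690 CPM with β-NMN (301 to 379 and 272 to 384 without Lyz2), with 4 of 10 log2 changes above 0 and 6 below. The 5 markers of LYVE1 macrophages summed to 221 to 281 and 150 to 196 CPM, with 4 below 0, from -1.45 for Cd163 and -1.37 for Lyve1 to -0.11 for F13a1, and Cbr2 at 0.58. None of these was called, and their part in the level of Mrc1 was not tested.

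Clec10a stood at 1.69, 8.56 and 1.51 CPM in the vehicle hearts and at 1.15, 0.924 and 0.837 CPM with β-NMN. Vehicle replicate 2 was far above all others, and the log2 change of -2.02 ± 0.71 (SE, edgeR adjusted p = 0.435) became -0.74 without it. Mesothelial markers in that library summed to 83.6 CPM, against 1.52 to 7.60 in the other vehicle hearts, and fibroblast markers to 2146 against 1043 to 1298 CPM. The part of this in the level of Clec10a was not tested.

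Clec4e and Clec4d were also lower in each of the 3 β-NMN hearts than in any vehicle heart. Clec4e stood at 1.60, 4.25 and 2.62 CPM with vehicle and at 0.894, 0.388 and 1.33 CPM with β-NMN (log2 change -1.69 ± 0.54, edgeR adjusted p = 0.435). Clec4d stood at 6.01, 8.48 and 5.12 CPM and at 3.31, 1.03 and 3.49 CPM (-1.33 ± 0.46, same adjusted p). Clec5a ranged from 4.19 to 4.96 CPM and from 2.73 to 3.95 CPM, again without overlap. Without vehicle replicate 2 the log2 changes were -1.26 for Clec4e, -1.11 for Clec4d and -0.62 for Clec5a. In all, 5 members had every β-NMN heart below every vehicle heart and 0 had every one above, where 11.5% and 11.6% of the genes tested did so. Neutrophil markers were also lower in the β-NMN hearts, with a summed level of 16.1 to 20.0 against 27.03 to 44.4 CPM, and so were monocyte markers at 15.9 to 18.5 against 28.6 to 73.4 CPM, and their part was not tested.

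Clec12a had a positive log2 change in heart, 1.64 ± 0.56 (SE, edgeR adjusted p = 0.435), at 0.691, 0.451 and 1.25 CPM with vehicle and 2.23, 3.99 and 1.18 CPM with β-NMN. The third β-NMN heart lay below the third vehicle heart, so the groups overlapped, and without vehicle replicate 2 the change was 1.36. Clec4n, Clec4a1 and Clec4a2 had log2 changes of -0.30 ± 0.36, 0.02 ± 0.22 and 0.12 ± 0.19 (SE), with overlapping groups, and of -0.30, -0.13 and 0.07 without vehicle replicate 2.

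In the CLP lungs no gene was called by edgeR either (0% of 17008 genes tested, 301 at an unadjusted p under 0.05), and DESeq2 called 9 genes, none of them a member. Clec10a stood at 17.7, 63.7 and 11.8 CPM in the vehicle lungs and at 9.99, 6.26 and 6.27 CPM with β-NMN. The groups did not overlap, yet vehicle replicate 2 set most of the difference, with a log2 change of -2.04 ± 0.65 (SE, edgeR adjusted p = 0.969) that became -0.99 without it. Mrc1 stood at 91.9, 115.9 and 80.8 CPM with vehicle and at 69.7, 78.9 and 80.1 CPM with β-NMN (-0.33 ± 0.23, same adjusted p). Its highest β-NMN lung lay just under its lowest vehicle lung, and the change was -0.18 without vehicle replicate 2.

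Clec12a was the member with every β-NMN lung above every vehicle lung, at 14.7, 9.09 and 9.24 CPM against 7.25, 5.20 and 7.21 CPM (0.74 ± 0.32, SE, edgeR adjusted p = 0.969, and 0.60 without vehicle replicate 2). Clec4a1 was lower in each β-NMN lung, at 13.2 to 17.4 CPM against 18.6 to 20.4 CPM (log2 change -0.29 with and without vehicle replicate 2). Thus 3 members lay below and 1 above without overlap, where 3.75% and 4.47% of the genes tested did so. Clec4n, so low in peritoneal cells with β-NMN, stood at 14.7, 4.19 and 14.0004 CPM in vehicle lungs and 13.3, 13.8 and 16.8 CPM in β-NMN lungs, a log2 change of 0.40 ± 0.46 (SE) that was 0.03 without vehicle replicate 2. The remaining members had log2 changes between -0.39 and 0.46. Without vehicle replicate 2 these were -0.49 for Clec4e, -0.30 for Clec4d, -0.11 for Clec4a2, -0.21 for Clec5a and 0.61 for Clec7a.

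Sums of cell markers were also examined in the lungs, where no marker was called. The 10 macrophage markers summed to 1538 to 4704 CPM with vehicle and 5333 to 5878 CPM with β-NMN, with 4 of 10 log2 changes above 0 and none called. Lyz2 made up 83.4% of this sum on average, and the other 9 markers overlapped, at 479 to 784 and 620.03 to 701 CPM. Cardiomyocyte markers summed to 250.04 to 414 and 71.6 to 246 CPM, and without their leading marker Tnnt2 to 163 to 178 and 42.9 to 169 CPM, with overlap. In vehicle replicate 2 the macrophage sum was 1538 CPM, against 4386 to 4704 in the other vehicle lungs (479 against 701 to 784 without Lyz2), and the endothelial sum 724 against 1226 to 1501 CPM. Other sums were higher there. LYVE1 macrophage markers stood at 9549 against 6403 to 7381 CPM, and without Cbr2 at 4275 against 359 to 496 CPM, with Lyve1 at 4154. T cell markers summed to 24.0 against 6.01 to 11.4 CPM. The part of these markers in the values of the receptors was not tested.

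**Figure D4:**
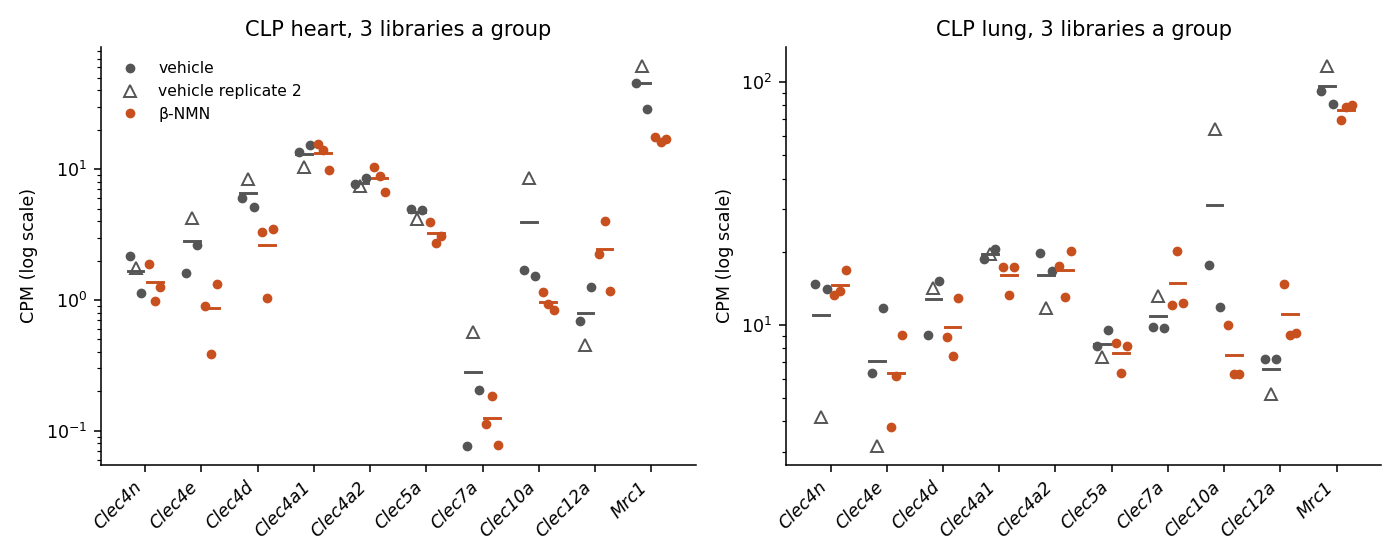
CPM of the 10 receptors on log axes in CLP heart and CLP lung, with 1 point per library (3 vehicle in grey with replicate 2 as an open triangle, 3 β-NMN in orange) and a line at each mean. Mrc1 separates the groups in heart (29.1 to 61.2 against 16.1 to 17.8 CPM), and the triangle sets most of the Clec10a difference in both organs.

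Signalling genes in the organs had no called member. In heart, 41 of 53 tested signalling genes had a negative log2 change, with a median of -0.28 against -0.01 over all genes, and the 12 tested cytokine and enzyme targets had a median of -1.42. In lung, 31 of 57 were negative with a median of -0.08. The alternative activation list had a median of -1.19 in heart (13 of 15 negative) and 0.13 in lung (7 of 15 negative), and the other C-type lectins had medians of 0.26 and 0.20. Without vehicle replicate 2 the alternative activation median was -0.33 in heart and -0.11 in lung, so the heart value shrank and the lung value changed sign. The signalling medians were then -0.24 in heart, -1.42 for its cytokine and enzyme targets, and -0.15 in lung (43 of 57 negative), and those of the other C-type lectins 0.14 and 0.23.

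The β-NMN effect was next set against that of peritoneal cells in a single fit per organ, chosen after the values above were seen. Heart and peritoneal cells differed for 15.1% of 19312 genes and lung and peritoneal cells for 6.64% of 20147 genes. The peritoneal libraries serve in both fits. The tissue, the infection model, the depth, the dosing with β-NMN, the culture with E. coli and the count table cannot be told apart. For Mrc1 the effect in heart minus that in peritoneal cells was -2.50 ± 0.30 on the log2 scale (SE, edgeR adjusted p = 3.80e-05), and -2.26 without vehicle replicate 2. The lung difference of Mrc1 was -1.38 ± 0.28 (SE, edgeR adjusted p = 0.00543), and -1.31 without that replicate. Clec10a differed by -2.95 ± 0.55 in heart and -2.90 ± 0.51 in lung (SE, edgeR adjusted p = 0.00158 and 0.00179), and by -1.69 and -1.98 without vehicle replicate 2, still called in each.

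For Clec4n the differences had the opposite sign, 4.32 ± 0.40 for heart and 5.09 ± 0.46 for lung (SE, edgeR adjusted p = 3.56e-06 and 5.76e-06), and 4.31 and 4.67 without vehicle replicate 2. Clec4a1 differed by 1.13 ± 0.27 in heart and 0.86 ± 0.24 in lung (SE, edgeR adjusted p = 0.00832 and 0.0384), the latter no longer called without vehicle replicate 2 (edgeR adjusted p = 0.0854). Clec7a differed by 1.02 ± 0.28 in lung (SE, edgeR adjusted p = 0.0336), and by 1.09 without that replicate. The differences of Clec4e, Clec4d, Clec4a2, Clec5a and Clec12a were not called in either organ.

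**Figure D5:**
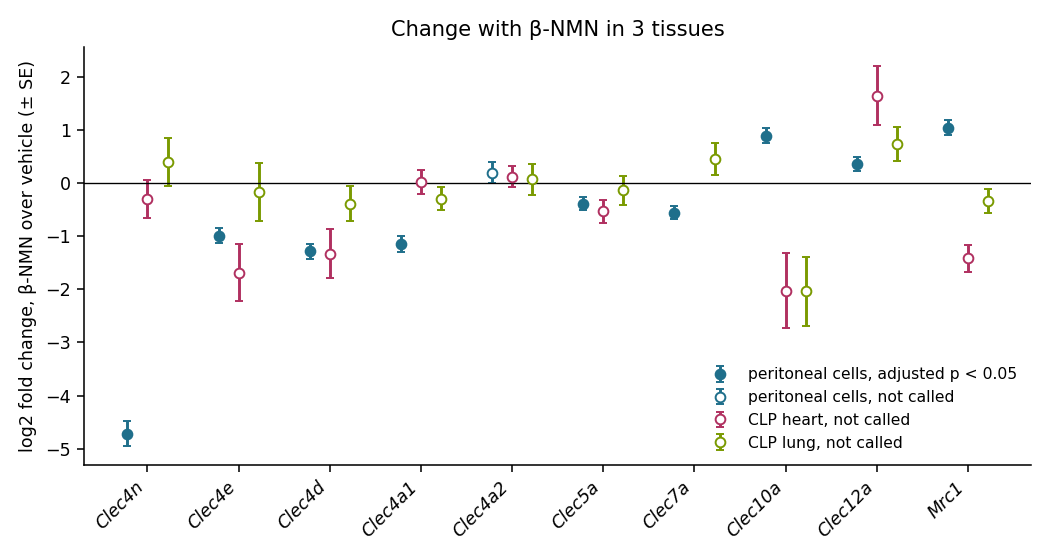
Log2 fold change (β-NMN over vehicle, ± SE) of the 10 receptors in peritoneal cells (blue, n = 6 a group), CLP heart (red, n = 3) and CLP lung (green, n = 3), with filled points for called genes. Mrc1 and Clec10a lie above 0 in peritoneal cells and below 0 in both organs, and Clec7a was not tested in heart.

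Between the organs themselves, the β-NMN effect on no gene differed past the threshold with edgeR (0% of 18318 genes tested, 797 at an unadjusted p under 0.05, 14 called by DESeq2). Mrc1 had the smallest p of the members, with a lung effect minus heart effect of 1.11 ± 0.34 on the log2 scale (SE, edgeR unadjusted p = 0.00720, adjusted p = 0.960).

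The levels of the receptors differed widely between lung and heart of the same CLP mice, in a fit where 64.8% of 18318 genes were called, 35.9% higher and 28.9% lower in lung. Of the 10 members 7 were called higher in lung and none lower. Clec7a, at 9.69 to 20.1 CPM in lungs and 0.0768 to 0.564 CPM in hearts, had the largest log2 difference of them, 5.38 ± 0.44 (SE, edgeR adjusted p = 7.96e-07). Clec4n differed by 2.41 ± 0.34, Clec10a by 2.26 ± 0.50, Clec12a by 1.93 ± 0.35, Clec4e by 1.45 ± 0.42 and Mrc1 by 0.94 ± 0.17. Clec4d was near the threshold at 0.76 ± 0.30 (SE, edgeR adjusted p = 0.0416), a call that 5 of the 12 fits with a library left out kept, lost without vehicle heart 1, 2 or 3, β-NMN heart 2, vehicle lung 3 or β-NMN lung 1 or 3.

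Clec4a1, Clec4a2 and Clec5a were not called, with differences of -0.25 ± 0.16, 0.33 ± 0.19 and 0.36 ± 0.18 (SE). Clec4a1 was called at -0.43 without vehicle heart 2, and Clec4a2 and Clec5a at 0.43 and 0.42 without vehicle lung 2. DESeq2 called 8 members higher, Clec5a among them (0.34, DESeq2 adjusted p = 0.0496). Macrophage markers summed to 1538 to 5878 CPM in lungs and 377 to 690 CPM in hearts, but without Lyz2 the other 9 summed to 479 to 784 and 272 to 384 CPM, and their part in these differences was not tested. Per kilobase, Clec4a1 at 8.38 ± 1.58 and Mrc1 at 7.12 ± 2.52 CPM per kb led the vehicle hearts, and Mrc1 at 15.1 ± 2.81 and Clec4a1 at 12.6 ± 0.580 led the vehicle lungs (SD, n = 3), each pair overlapping. Clec4e, first in peritoneal cells, stood at 0.569 ± 0.270 CPM per kb in vehicle hearts and 1.43 ± 0.870 in vehicle lungs. Clec7a was the lowest in vehicle hearts at 0.107 ± 0.0959 CPM per kb, overlapping with Clec12a, and in lung it stood at 4.12 ± 0.750.

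Related genes also differed between the organs. Their calls are to be read against the 64.8% of all genes called, 35.9% higher and 28.9% lower in lung. The 35 called of 57 signalling genes and 9 called of 15 alternative activation genes lay near that 64.8%. Of 43 other C-type lectins tested, 29 were called higher in lung and 5 lower, led by the collectins Sftpd and Sftpa1 of lung epithelium at 15.75 ± 0.51 and 14.71 ± 0.73 on the log2 scale (SE), with Ly75 higher by 4.00 ± 0.27, Clec18a at -8.00 ± 0.58 and Colec11 at -5.83 ± 0.53. Of 57 signalling genes, 27 were higher and 8 lower in lung, and of the 5 with the smallest p Prkcd, Inpp5d and Il1b were higher while Tec and Ptpn11 were lower. Of the 15 alternative activation genes, 6 were higher and 3 lower, with Chil3 at 7.70 ± 0.36, Retnla at 6.58 ± 0.68, Mgl2 at 2.80 ± 0.46 and Il4ra at 1.12 ± 0.22, and Pparg the other way at -1.06 ± 0.22 on the log2 scale (SE).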

How the data were processed

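RNA-seq was compared between β-NMN and vehicle in peritoneal cells (6 against 6 libraries) and in heart and lung after CLP (3 against 3). The authors deposited raw counts per gene symbol, made from poly(A) RNA with STAR (2.7.3a in the submitters' processing notes, while the study's methods name another release) and featureCounts 2.0.0 on mm10. The annotation, strand setting and treatment of multiply mapped reads are not given in the sources used here. Reads shared between paralogs are therefore uncertain. No column of the tables was left out and no row lacked a gene name.

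Separate fits per tissue were made in edgeR 4.0.16 (R 4.3.3) after filterByExpr and TMM scaling, using the legacy quasi-likelihood test, and p-values were adjusted by Benjamini-Hochberg over all genes tested. SE is the size of the log2 change divided by the square root of F. The organ comparisons used the 12 CLP libraries. Log2 CPM for the two-sided exact permutation tests had a prior count of 2. Levels per kilobase used merged exons of GENCODE M21, in which 54106 of the 54658 symbols were found. That annotation may not be the one used for counting. The tests were checked on simulated counts. All 10 members were named, and from each gene list up to 5 called genes with the smallest p, with exceptions stated and 1 gene that the rule names not reported here. Single marker genes were named after their values were seen. The members and lists were chosen with earlier results of these data known. Alternatives were other size factors, no filter, DESeq2 1.42.0, limma-voom (limma 3.58.1), the newer and robust fits, blocks and leaving out each library. The depth class as a term, values within depth classes, the fits joining an organ with peritoneal cells, the list medians without vehicle replicate 2 and the marker sums without their leading gene were added after seeing the data.

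Each library comes from 1 mouse. In the labels a pair of β-NMN hearts has number 3, and the one whose mouse has lung number 2 was taken as replicate 2. Heart and lung of 1 mouse share that mouse, and their deviations from the group means correlated across genes at r of 0.0638 to 0.171. No libraries agreed within sampling noise.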

Additional observations from a re-analysis of the deposited data

Results flagged for a closer look

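A library lay far from the others of its group for 2 of the 20 groups of peritoneal values examined (10 members, 2 groups of 6), which chance gives in about 5% of groups. Both were β-NMN replicate 6, with Clec4e at 2730 CPM, above the rest, and Clec10a at 7.00 CPM, below the rest. Leaving that library out kept both calls.

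The effect of β-NMN differed from that in peritoneal cells, by edgeR's interaction test over both tissues, for 4 members in heart. It did so for 15.1% of all genes tested in heart and for 6.64% in lung. The effect in heart minus that in peritoneal cells was 4.32 for Clec4n, 1.13 for Clec4a1, -2.95 for Clec10a and -2.50 for Mrc1 on the log2 scale. In lung it was 5.09 for Clec4n, 0.86 for Clec4a1, 1.02 for Clec7a, -2.90 for Clec10a and -1.38 for Mrc1. The lung value of Clec4a1 was no longer called without vehicle replicate 2 (edgeR adjusted p = 0.0854). The heart and lung values share the peritoneal libraries and, with them, the same reference.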

How the results depend on the processing

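The 6 lower and 3 higher receptors of peritoneal cells kept their direction under every alternative run, and of them Clec5a and Clec12a lost their call under some. Clec5a lost it with no filter on low counts (-0.36) and Clec12a with the replicate number as a block (0.36), while limma-voom called Clec4a2 (0.40). Genes called in peritoneal cells numbered 7132 to 8049 with a library left out, with 2 to 3 members higher and 5 to 6 lower, 7010 with the replicate block (2 members higher, 6 lower) and 7570 with the depth class as a term (3 higher, 6 lower). Same-numbered peritoneal libraries correlated at r of -0.17 to 0.13, so the numbers do not pair them. In heart r was 0.24, 0.18 and 0.07, each library correlating best with its own number, and in lung -0.52, -0.32 and 0.30. The block called 0 genes in heart and in lung. With the mouse as a block, 11408 genes differed between lung and heart, 7 members among them, and 0 differed in their β-NMN effect.

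In heart, 3 genes were called with no filter, 262 with DESeq2 (1 member lower, Mrc1), 3 with limma-voom and 0 to 5 with a library left out, where 5 were called without vehicle replicate 2. In lung, DESeq2 called 9 genes and limma-voom 7. For the difference between the organs' effects, 2 were called with no filter and 14 with DESeq2. Members lower in lung than heart numbered 0 to 1 with a library left out. The causes were not tested.

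Small changes that no fit called turned sign. With limma-voom, Clec4a1 in heart was -0.063, and in lung Clec4e was 0.0089, Clec4d 0.064 and Clec4a2 -0.038. With a library left out, Clec4a1 ranged from -0.13 to 0.19 and Clec4a2 from -0.021 to 0.28 in heart, and in lung Clec4a2 ranged from -0.11 to 0.26 and Clec4e from -0.52 to 0.41. In the fits over heart and peritoneal cells without vehicle replicate 2, chosen after seeing the data, Clec4d was 0.11 and Clec7a 0.52. With the longest transcript as length, Clec4d stood at 382 and Clec7a at 71.6 CPM per kb in peritoneal vehicle libraries. Few reads stood behind Clec7a in heart (3 to 30, at 0.0768 to 0.564 CPM), although the hearts were sequenced deeper than the lungs on the whole, and the shallow lung library of vehicle replicate 2 had 22 to 802 reads per member.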
